A study of Homo sapiens with 2 samples.

Results

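MYC was called at 483 sites on the short arm of chromosome 2 (2p), out of 1174 on the whole chromosome and 17659 in the authors' list. A site was counted on the arm when its summit, the point of highest signal, lay below position 92000000 of GRCh37; the summits of the other 691 sites of chromosome 2 lay beyond it. MYC was profiled by ChIP-seq in 1 library, beside 1 library of input DNA. Both libraries came from TET21 (SH-EP/TET21/N), a subclone of the human neuroblastoma line SH-EP with a MYCN transgene that doxycycline represses, made to express full-length MYC. Doxycycline was given at 1 µg/mL over 7 days, and fixation took 10 min in 1% formaldehyde. MYC was precipitated with 2 µg of an in-house rabbit polyclonal antibody, and the labels do not say whether it separates the introduced MYC from the cells' own. A control library without MYC was not analysed here. With 1 library of each kind no difference between the arms was tested. Intervals are 95% intervals for counting error only; they treat sites as independent, which crowded sites are not, and so may be too narrow.

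MYC binds DNA as a dimer with MAX, preferentially at the E-box hexamer CACGTG, and is mostly found at active promoters. Arm 2p is known in neuroblastoma for MYCN, the MYC paralog whose amplification marks high-risk tumours, and for ALK, a receptor tyrosine kinase mutated in familial disease. It also carries ODC1, which encodes ornithine decarboxylase, the first enzyme of polyamine synthesis and a textbook MYC target. The gene and promoter tables used here are on GRCh38.p14, another build than the peaks, so no peak was assigned to a gene and no sequence under a peak was read.

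The E-box itself was counted in a short promoter stretch of the genes of the arm, so a gene without it there may carry it elsewhere. Promoters were 300 bases long (250 before and 50 after a start), from RefSeq, GRCh38.p14, and matched 412 of the 471 protein-coding genes of the arm. CACGTG, which reads the same on both strands, was present in a promoter of 31 of these 412 genes (7.52%, Wilson interval 5.35 to 10.5). On the rest of chromosome 2 it was present for 85 of 696 genes (12.2%, 9.99 to 14.9), and over chromosomes 1 to 22 and X for 1723 of 15812 (10.9%). Counted by promoter, 5.45% of those on 2p and 8.34% of all held it. The hexamer CACGCG, a weaker E-box variant, searched on both strands, was found for 18.4% of genes on either part of the chromosome and 18.1% overall. Another variant, CATGTG, was found for 11.2% of genes on 2p, 14.1% on the rest and 11.5% overall. Of the 3 genes named above, ODC1 has a promoter with CACGTG before its start and again after it, and another promoter without it. ALK likewise has 1 promoter with it and another without, and the MYCN promoter listed does not hold it. The 250 bases before these starts of ODC1 and ALK, both on the minus strand, are shown 5′ to 3′ with CACGTG in capitals, 29 bases before the start in ODC1 and 117 in ALK. They show what the motif looks like in genes of this arm. Which promoter of each gene is mainly used was not examined, so the stretches shown may belong to alternative starts. Whether a peak lies there was not analysed here.
ODC1: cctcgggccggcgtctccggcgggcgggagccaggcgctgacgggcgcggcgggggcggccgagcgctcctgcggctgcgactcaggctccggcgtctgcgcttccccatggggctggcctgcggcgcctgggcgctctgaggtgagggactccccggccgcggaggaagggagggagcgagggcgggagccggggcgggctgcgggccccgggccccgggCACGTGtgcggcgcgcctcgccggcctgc
ALK: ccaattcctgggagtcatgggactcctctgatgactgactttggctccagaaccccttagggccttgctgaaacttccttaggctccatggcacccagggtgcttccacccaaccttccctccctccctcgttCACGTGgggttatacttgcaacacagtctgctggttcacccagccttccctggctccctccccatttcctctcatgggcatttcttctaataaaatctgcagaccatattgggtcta

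The density of sites was slightly higher on 2p than on the rest of the chromosome, a difference that was not tested. The arm held 5.28 peaks per Mb (interval 4.82 to 5.77) over the 91.5 Mb from its first to its last peak, and the rest of chromosome 2 held 4.69 per Mb (4.35 to 5.06) over 147.2 Mb. The intervals overlap. Set against genes, 2p held 102.5 peaks per 100 protein-coding genes (93.6 to 112.1; 471 genes) and the rest 88.3 (81.8 to 95.1; 783 genes). These intervals also overlap, but overlap does not show that the densities are equal. The 483 peaks covered 132.9 kb in all.

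The typical site of the arm was narrow and modest, much like those elsewhere. Its median width was 231 bp (quartiles 172 and 322.5), against 220 bp on the rest of the chromosome and 226 bp over all peaks. The median fold, the peak caller's enrichment of ChIP over the local background, was 6.54 (quartiles 5.41 and 8.62) on 2p, 6.29 (5.17 and 8.26) on the rest of chromosome 2 and 6.40 over all peaks. The median pileup, meaning the ChIP fragments that cover the summit, was 13 on 2p and 12 on the rest. Pileup and background, the fragments that the caller expected there without enrichment, were worked out from the deposited fold and −log10 p. The pileups of the arm ran from 6 to 71 fragments.

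The share of high-fold sites on 2p could not be told from that elsewhere by its counting interval. Of the 483 peaks, 88 reached a fold of at least 10 (18.2%, Wilson interval 15.0 to 21.9), against 100 of 691 on the rest (14.5%, 12 to 17.3) and 15.4% of all peaks. The intervals overlap, and that of 2p includes the share over all peaks. On either part 11 peaks reached a fold of at least 20, which is 2.28% (1.28 to 4.03) of those on 2p and 1.59% (0.891 to 2.83) of the rest, against 1.43% of all peaks. By significance, 8 of the 10 strongest peaks of chromosome 2 were on 2p (Wilson interval 49.0 to 94.3%), although 2p held 41.1% of its peaks. The share was 11 of 20, 23 of 50 (46.0%, 33 to 59.6) and 47 of 100 (47.0%, 37.5 to 56.7), so it came close to that of all peaks once more than the top 20 were counted. Ranked by fold, 7 of the top 10 were on 2p (39.7 to 89.2%), and ranked by pileup, 6 of 10 (31.3 to 83.2%); both intervals include 41.1%.

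**Figure D1:**
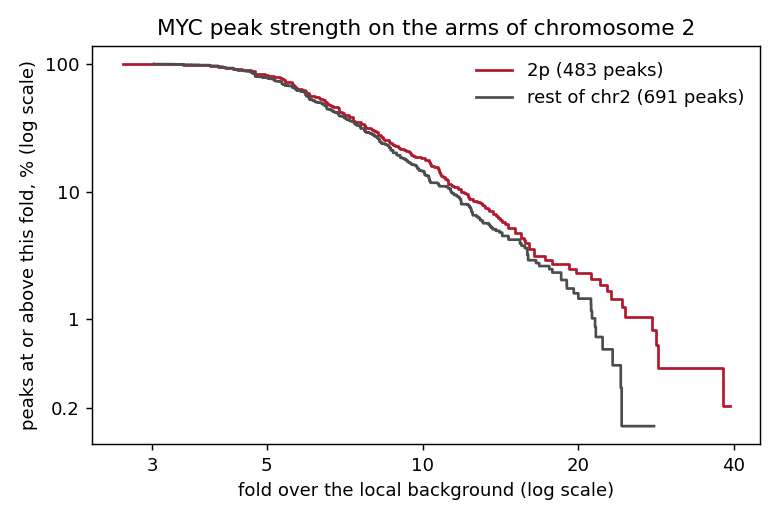
Share of peaks (log axis, percent) at or above each fold (log axis) for the 483 peaks of 2p and the 691 of the rest of chromosome 2. The curves run close together up to a fold of about 10, where 18.2% and 14.5% remain, and the highest folds are 39.32 on 2p and 28.02 on the rest.

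A pair of sites led the arm in fold and in pileup. The peak at 29117245 to 29118041 had 70 fragments at its summit (exact Poisson interval 54.6 to 88.4) over a background of 0.806, which gave it a fold of 39.32; its −log10 p was 108.93. It ranked 14 in the whole list by significance and 6 by fold. The peak at 70313834 to 70314305 had 71 fragments (55.5 to 89.6) over 0.890, a fold of 38.09. Their intervals overlap almost entirely, so their order is not resolved. The strongest peak on the rest of chromosome 2, at 216176542 to 216176983, had 64 fragments over 1.320 and a fold of 28.02. Its 64 fragments lie within the intervals of both peaks on 2p, and its background was higher than theirs.

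The next sites formed a more even series. The peak at 10829906 to 10830219 reached a fold of 28.21 with 51 fragments (38.0 to 67.1) and was isolated, 122.3 kb from any other peak. The peak at 68384876 to 68385211 reached 28.52 with 47 fragments over the lowest background in the list, 0.6832 fragments, a value that many peaks share and that is called the floor below. At 27440136 to 27440558 there were 58 fragments, but over a background of 1.593, which gave a lower fold of 22.75. The remaining 7 of the 12 most significant peaks started at 29092970, 74425497, 28615260, 75061962, 43453482, 75937642 and 85766574, with pileups of 38 to 50 fragments and folds of 19.83 to 27.73. The Poisson intervals of their pileups overlap one another.

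The 12 most significant sites were spread over 6 of the stretches of 10 Mb. There were 4 between 20 and 30 Mb and 4 between 70 and 80 Mb, which hold 18.4% and 14.9% of the peaks of the arm and are among its fuller stretches. The peaks starting at 28615260, 29092970 and 29117245 lay within 1 Mb, and those at 74425497, 75061962 and 75937642 within less than 2 Mb. Another peak lay within 1 kb of 7 of the 12 (58.3%, Wilson interval 32.0 to 80.7), against 31.3% of the peaks of 2p and 32.8% of all peaks; with 12 peaks the lower end of the interval lies at those shares. These 7 had 10 weaker neighbours in their regions, with folds of 4.70 to 11.87. The peak at 29117245 was followed 108 bp further on, at higher coordinates, by a peak of 32 fragments over a background of 1.980 (fold 11.07) and then by one of 13 fragments (fold 4.70). At 85766574 to 85767225, where the fold was 19.83, the neighbours on the lower-coordinate side had folds of 11.87 and 5.41.

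Pileup and background varied along with each other on 2p and on the rest of the chromosome alike, which bears on how a fold is read. Across the 483 peaks of 2p, pileup and background had a Spearman rho of 0.37, and fold and background −0.10; across the 691 of the rest these were 0.40 and −0.19. Both share the same loci, and background enters the fold by definition. Only called peaks are listed, and over a higher background a site needs a higher pileup to be called. Part of the positive rho of pileup and background may follow from that selection, by an amount that was not measured. The geometric mean background was 1.088 fragments on 2p and 1.062 on the rest of chromosome 2, against 1.131 over all peaks. The floor of 0.6832 held 48 peaks of 2p (9.94%, Wilson interval 7.58 to 12.9), close to the 9.97% over all peaks, and 100 peaks of the rest (14.5%, 12 to 17.3). Of the 48 peaks at the floor on 2p, 13 (27.1%, Wilson interval 16.6 to 41.0) had a fold of 10 or more, against 12 of 100 on the rest (7.00 to 19.8%) and 14.1% of all peaks at the floor. Wider peaks were stronger on 2p as elsewhere. The 39 peaks of 2p over 500 bp (8.07%, against 6.82% of all peaks) had a median fold of 10.35. That median was 9.46 on the rest and 10.35 over all peaks. The 44 peaks of the minimal width, 142 bp, had a median fold of 5.18, against 4.75 on the rest and 4.92 over all peaks. No peak of minimal width reached a fold of 10, on 2p or in the whole list. Width and pileup had a Spearman rho of 0.58 on 2p and 0.59 on the rest. Width, fold and pileup all come from the same ChIP signal, so they are not independent measures.

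**Figure D2:**
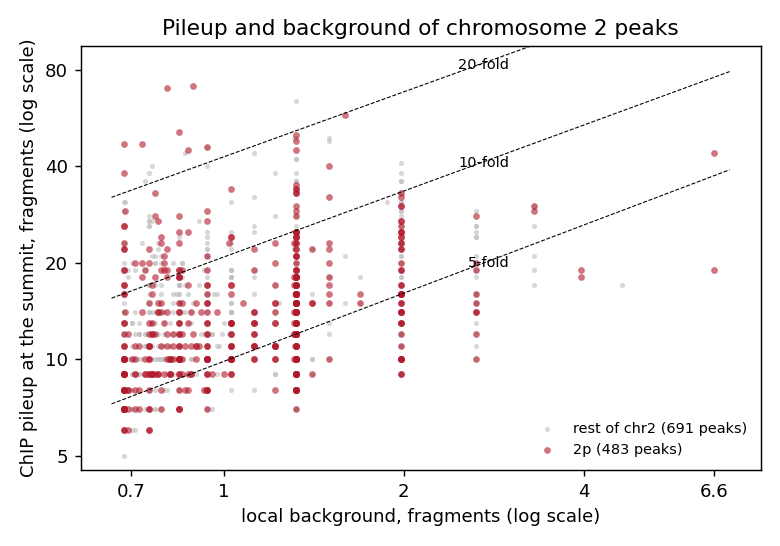
ChIP pileup at the summit against local background, both in fragments on log axes, 1 point per peak, for 2p and the rest of chromosome 2; dashed lines mark folds of 5, 10 and 20. The vertical bands are backgrounds that many peaks share, and the 2 points of 2p at the far right have backgrounds of 6.599.

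The last sites before the centromere had the highest estimated backgrounds of the arm. Backgrounds amount to few fragments, and no counting interval was put on them. The peaks at 91763779 to 91764134 and 91787145 to 91787294 both had a background of 6.599 fragments, 9.7 times the floor and the highest of the 17632 peaks on chromosomes 1 to 22 and X. The first had 44 fragments and a fold of 5.92. The second had 19 fragments and a fold of 2.63, the lowest on those chromosomes. The next highest background on 2p was 3.960. These are also the members nearest the boundary: the first peak beyond it, at 95787428 to 95787679, had a background of 2.640 and a fold of 5.77, after a stretch of 4.00 Mb with no peak. Without these 2 peaks the density of 2p was 5.42 per Mb, over a span that then ends earlier and measures 88.7 Mb, its geometric mean background 1.080 and its median fold 6.54.

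MYC sites on 2p were unevenly spread, with fuller windows between wide empty stretches. Of 92 windows of 1 Mb, 32 (34.8%) held no peak and 19 held 10 or more, and those 19 held 292 peaks (60.5%). On the rest of the chromosome, from the first window with a peak, 27 of 149 windows (18.1%) were empty and the 18 windows with 10 or more held 36.8% of the peaks. Windows were not counted on other chromosomes and were not set against their gene content. The window from 27 to 28 Mb was the fullest of the arm, with 26 peaks in 23 regions, folds of 3.88 to 22.75 and 9 peaks at a fold of 10 or more. The windows starting at 47, 74 and 85 Mb held 22 peaks each and that at 9 Mb held 19. A fold of 10 or more was reached there by 5 of the 22 peaks from 85 to 86 Mb, 4 from 74 to 75 Mb, and 2 each from 47 to 48 Mb and from 9 to 10 Mb, against 18.2% on the whole arm; these counts are too small to rank the windows. The fullest window of chromosome 2 was on the long arm, from 238 to 239 Mb, with 31 peaks but a highest fold of 12.51.

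**Figure D3:**
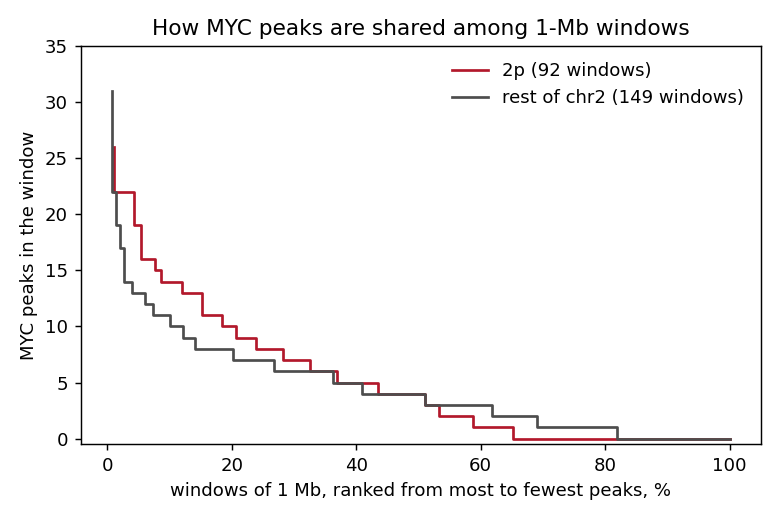
Peaks in each 1-Mb window, with the windows of each part ranked from most to fewest and placed by their percentile (percent of windows). The line of 2p (92 windows) lies above that of the rest (149 windows) over most of the fuller windows, other than the single fullest one, and reaches 0 earlier, since 34.8% of its windows are empty against 18.1%.

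By stretches of 10 Mb, the number of peaks varied more than their median fold. The stretch from 20 to 30 Mb held 89 peaks (exact Poisson interval 71.5 to 109.5) and that from 50 to 60 Mb held 25 (16.2 to 36.9), and these intervals do not overlap. From 40 to 50 Mb there were 76 and from 70 to 80 Mb 72. The median fold of the 9 stretches up to 90 Mb was between 6.12 (50 to 60 Mb) and 6.96 (80 to 90 Mb), and their geometric mean background lay between 0.968 in the first 10 Mb and 1.132 from 40 to 50 Mb. A fold of 10 or more was most frequent from 80 to 90 Mb, in 11 of 36 peaks (30.6%, Wilson interval 18.0 to 46.9), and least from 50 to 60 Mb, in 1 of 25 (4.00%, 0.710 to 19.5). Both intervals include the 18.2% of the whole arm, as do those of the other stretches.

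The longest stretch of 2p with no MYC site ran from 75938112 to 85108139, 9.17 Mb, and began directly after a strong peak at the floor background, at 75937642 to 75938111 (38 fragments, fold 23.17). The next were 5.30 Mb from 48711366 to 54013954 and 4.57 Mb from 3653268 to 8227443. Stretches of over 1 Mb with no peak numbered 15 and made up 46.7% of the span of the arm, against 30 that made up 39.0% of the span of the rest. The longest of the rest was 5.31 Mb. An empty stretch means that no site passed the caller's threshold at this depth, where the lowest pileup called on the arm was 6 fragments, and not that MYC was absent. Any unassembled bases of GRCh37, where no read can map, were not taken out of these stretches or of the empty windows.

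Close neighbours had the same share on 2p and on the rest of the chromosome, and the share of widely isolated peaks on 2p was near that over all peaks. Another peak lay within 1 kb of 151 peaks of 2p (31.3%, Wilson interval 27.3 to 35.5) and of 216 of the rest (31.3%, 27.9 to 34.8), against 32.8% of all peaks. More than 100 kb from any other were 70 peaks of 2p (14.5%, 11.6 to 17.9) and 147 of the rest (21.3%, 18.4 to 24.5), against 12.9% of all peaks. The interval of 2p includes the share over all peaks and that of the rest lies above it. The intervals of the parts do not overlap, and the difference between them was not tested. When peaks up to 1 kb apart were joined, 2p had 402 regions: 332 of 1 peak, 59 of 2 and 11 of 3. Isolated and crowded sites of 2p had similar folds, with medians of 6.50 and 6.47.

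**Figure D4:**
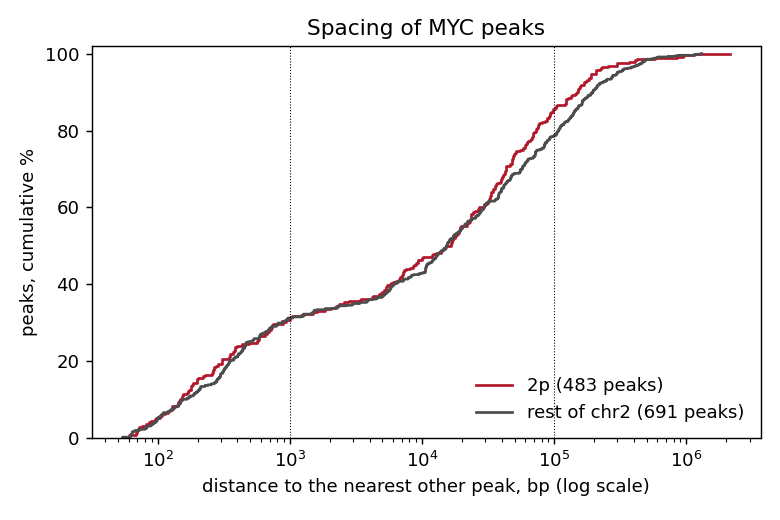
Cumulative share of peaks (percent) by the distance in bp to the nearest other peak (log axis) for 2p and the rest of chromosome 2, with dotted lines at 1 kb and 100 kb. The curves meet at 1 kb, where both have reached 31.3%, and separate towards 100 kb, beyond which 14.5% and 21.3% remain.

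Isolated sites of 2p reached high folds at about the share of other sites. Of the 70, 12 had a fold of 10 or more (17.1%, Wilson interval 10.1 to 27.6), against 18.2% of all peaks on 2p, 17.0% of isolated peaks on the rest and 12.9% of isolated peaks over the list. After the site at 10829906, the highest were those at 32581821 to 32582319 (34 fragments, fold 17.23), at 88991056 to 88991532 (26 fragments at the floor, fold 16.04) and at 15309831 to 15310124 (27 fragments, fold 14.45). The site at 88991056 was the most remote of the arm, 2139.8 kb from its nearest neighbour.

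The 11 regions of 3 peaks were between 1102 and 2708 bp long. The strongest were those around the peaks at 29117245, 43453482 and 85766574. The longest, 43451790 to 43454497, rose from folds of 5.51 and 8.73 to 21.12 along its length, with 9, 25 and 48 fragments. The shortest, 71356850 to 71357951, had folds of 4.75, 6.54 and 11.88. Others were even: at 55276205 to 55277712 the folds were 6.90, 6.40 and 6.40, from 15, 12 and 12 fragments, and at 47402763 to 47404163 they were 5.94, 5.91 and 6.47. In these 2 regions the Poisson intervals of the 3 summit counts overlap.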

How the data were processed

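The data were 1 MYC ChIP library and 1 input library; the deposited file is the authors' peak list for the ChIP library, in narrowPeak layout and GRCh37 per the labels. The submitters' processing notes name STAR 2.5.2a, SAMtools 1.3, Picard 2.7.1, MACS2 2.1.0 and bedtools, with no role or order. In 100.0% of peaks the authors' score is the whole part of 10 times the −log10 q. The deposited fold is a ratio over the caller's local background, and the deposited −log10 p and −log10 q values are the caller's. The authors' filter on the list is not given in the sources used here. The running peak numbers skip 20 values, 1 of them within chromosome 2.

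Pileup and background were recovered from each fold and −log10 p, on the reading that fold is (pileup + 1) / (background + 1) and p a Poisson tail; a whole pileup between 3 and 699 matched within 0.001 in 100.0% of peaks, with a largest miss of 0.000221. The step was tested on simulated data made with the same formulas, which checks the recovery and not that the caller used them. Sequencing depth is otherwise unknown. The floor is a background within 0.0003 of 0.6832 fragments. No molecular identifiers are named, so fragments need not be independent molecules. Coordinates are 1-based. Analyses used Python 3.11.15, numpy 2.4.6, pandas 2.3.3 and scipy 1.17.1.

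Genes were counted on the arm by their place before the centromere in the GRCh38.p14 RefSeq table; peaks and that table were not placed on 1 map. The planned shares of peaks at start sites and of bound promoters, the gene lists and the motifs under peaks were therefore not computed. Peaks were named by position: the 12 with the highest −log10 p, regions of 3 peaks and the longest empty stretches, and others, the isolated and pericentromeric sites among them, after their values were seen. The members and lists were chosen with earlier results of these data known.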

Additional observations from a re-analysis of the deposited data

How the results depend on the processing

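Among 13 alternatives, 8 were labelled unchanged and 5 were not. The rule was a value inside the interval of the reported one, or a count within 1.5 times of it. No interval is given here for the median fold, the ratio of median folds or the geometric mean background. Most of the 8 only left out the 2 pericentromeric peaks, directly or by a shifted boundary that left 481 peaks. Such settings could hardly move a value, so the 8 are not separate checks. Peaks with a neighbour rose from 151 within 1 kb to 184 within 5 kb, unchanged only by the 1.5 times rule. Keeping peaks at or above the list's median −log10 p left 254 on 2p (2.78 per Mb) and 326 on the rest of chromosome 2 (2.21 per Mb), and the upper quartile left 129 and 160; fewer peaks follow from the stricter threshold. With 1 peak per joined region the median fold was 6.89 on 2p and 6.54 on the rest, since the best peak of each region was kept, and 20.9% and 16.7% had a fold of 10 or more. Among peaks at least 20 kb from any other (217 and 315) the geometric mean background was 1.127 on 2p and 1.042 on the rest; the cause was not tested. The median fold of 2p was 1.04 times that of the rest of chromosome 2 and 1.02 times that of the other autosomes. Leaving out the 2 pericentromeric peaks, and counting 1 peak per region for the share of high folds, were chosen after seeing the data. Assembled lengths of GRCh37 were not used, so the density over them was not run. No paired analysis was possible because there is 1 ChIP library and 1 input library. No replicate could be left out.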

Other observations

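Some peaks that stood in pairs on 2p were unequal in fold. In its 59 regions of 2 peaks the higher fold was a median of 1.48 times the lower (quartiles 1.22 and 2.06), and it was more than 2 times the lower in 16 (27.1%, Wilson interval 17.4 to 39.6). On the rest of chromosome 2 the median was 1.38 (1.18 and 1.66) over 88 pairs, with 11 above 2 times (12.5%, 7.13 to 21.0). The intervals overlap, and the difference was not tested. The higher fold cannot be below the lower, so counting error alone raises this ratio, by an amount that was not measured. Pairs of the whole list were not compared. The summits of a pair lay a median of 523 bp apart on 2p and 574 bp on the rest.

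Summits sat near the middle of their peaks, at a median of 0.496 of the width on 2p and 0.487 on the rest.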
